A study of Mus musculus with 30 samples.

Results

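Intraepithelial lymphocytes are T cells that sit between the epithelial cells of the gut lining, and the genes followed here are 39 genes that mark them and T cells in general. The members were listed by name and grouped by role: 11 receptor and receptor signalling genes, 6 homing and retention genes, 11 cytotoxic and effector genes, 8 costimulation and surface genes and 3 transcription factors. Of the 39 genes, 38 had a probe set that names that gene alone, against 18194 such genes on the whole array. Lck was not analysed here, and Cd244 is named Cd244a. Each gene was read from its probe set with the highest mean over the 30 arrays.

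Most of these cells carry CD8 and a T cell receptor of either the alpha-beta or the gamma-delta kind. The chemokine receptor CCR9 and integrins with a beta 7 chain bring them to the small intestine, and CD103, the product of Itgae, holds them there by binding E-cadherin on the epithelial cells. They carry granzymes and other killing proteins in readiness, and they depend on interleukin 15 for upkeep.

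The study deleted Rb, or Rb and Myc together, in the mouse small intestine with Ah-cre, an inducible intestinal Cre, in mice of 2 months of age. Villi, the finger-like folds that carry mature cells, and crypts, where the epithelial cells divide, were collected 5 days after deletion. The groups were control, Rb KO (Rb deleted) and Rb/Myc DKO (both deleted), with 5 villus and 5 crypt arrays each, so 30 arrays in all. The labels do not give the genotype of the controls in more detail, do not say whether lymphocytes themselves lost either gene, and do not say that the replicates were separate animals. Each p-value therefore measures the spread between these samples. RNA came from whole villus or crypt preparations. Fewer lymphocytes, less RNA per lymphocyte and more RNA from the other cells therefore cannot be told apart.

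Array values are on a log2 scale, where a difference of 1 is a doubling of signal. They were not on a common footing between tissues, with array medians of 6.28 to 6.34 in villi and 6.67 to 6.73 in crypts, so genotypes were compared within a tissue and no villus level is set against a crypt level. Rb1 read 9.14 to 10.21 in control villi and 8.19 to 8.34 in Rb KO villi, with 8.25 to 8.66 in Rb/Myc DKO villi. Myc read 10.33 to 10.86 in control crypts and 8.67 to 9.01 in Rb/Myc DKO crypts. Earlier results of these data set control 1 and Rb KO 4 and 5 apart, and the counts without them are given beside the main counts. The level of Gapdh at the 3' end minus that at the 5' end, a sign of RNA integrity, was -0.211 to -0.112 in control villi and -0.0903 to 0.0115 in Rb KO villi (exact two-sided permutation test, p = 0.00794, adjusted p = 0.0476 over 12 tests). It was also higher in Rb/Myc DKO than in control villi, by a mean of 0.0437 (exact two-sided permutation test, p = 0.00794, adjusted p = 0.0476), and its part in the differences below was not tested.

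A gene was tested where its mean exceeded 5.33, the 30th percentile of all probe sets, which left 14548 genes and 31 of the members. The 7 members below that level were Trat1, Cd5, Cd69, Cd27, Cd28, Sh2d1a and Tbx21. A gene was called changed where limma's moderated test gave a Benjamini-Hochberg adjusted p under 0.05 over all genes tested. Differences are given with their standard error.

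In Rb KO villi the intraepithelial lymphocyte genes were lower than in control villi across the receptor, homing and part of the cytotoxic groups. Of 31 members tested, 19 fell and 0 rose, and the median difference was -0.43 against -0.02 over all genes tested. Among all genes tested, 15.8% fell and 14.7% rose. By role, 8 of 9 receptor genes, 4 of 5 homing genes, 5 of 11 cytotoxic genes, 2 of 4 costimulation genes and 0 of 2 transcription factors fell. The genes of granzyme A and granzyme B did not pass the test. All 5 Rb KO arrays lay below all 5 controls for 5 members (Cd247, Lat, Itgae, Itgb7 and Cd244a), which held for 8.81% of all genes tested, while 9.88% lay wholly above.

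**Figure D1:**
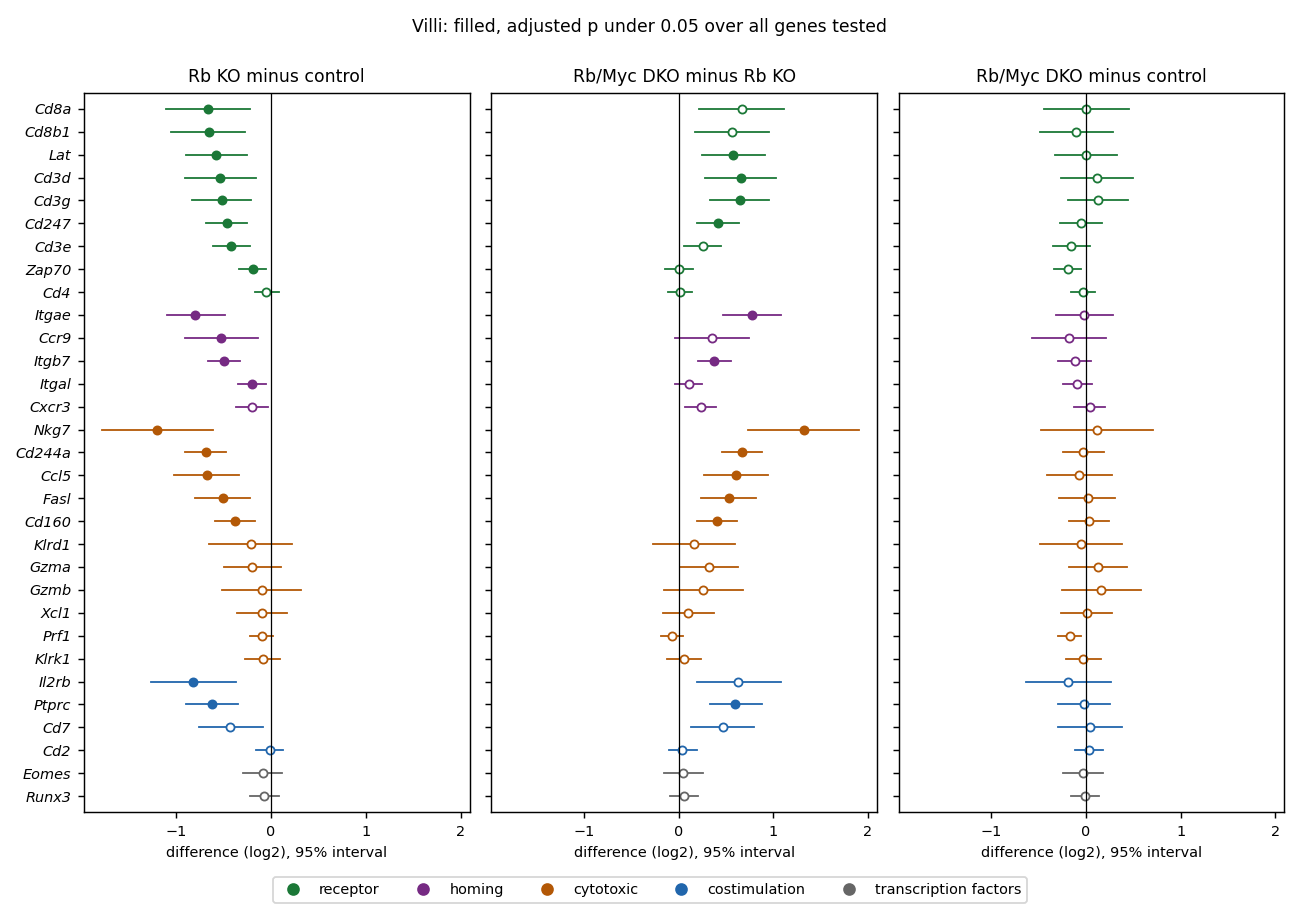
Difference in log2 value in villi for each of the 31 members tested, with its 95% interval, in 3 comparisons; colour gives the role and filled points passed an adjusted p of 0.05. Rb KO minus control has 19 filled points to the left of 0, Rb/Myc DKO minus Rb KO has 12 to the right, and Rb/Myc DKO minus control has 0.

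The receptor group holds the CD3 chains, which carry the signal of the T cell receptor into the cell. Cd3e, the CD3 epsilon chain, read 9.47, 9.50, 9.39, 8.97 and 9.29 in control villi, 9.0, 9.04, 8.90, 8.80 and 8.78 in Rb KO villi and 9.23, 9.23, 9.21, 9.08 and 9.08 in Rb/Myc DKO villi. It fell in Rb KO villi by 0.42 ± 0.09 (limma adjusted p = 0.00267), with 4 of 5 control arrays above every Rb KO array. Cd3g, the gamma chain, read 10.47, 10.83, 10.45, 10.07 and 10.43 in control villi, 10.16, 10.24, 10, 9.61 and 9.63 in Rb KO villi and 10.69, 10.61, 10.54, 10.27 and 10.76 in Rb/Myc DKO villi. The difference between Rb KO and control was -0.52 ± 0.15, a 1.43-fold lower signal, and control 4 lay among the Rb KO arrays. Cd3d, the delta chain, read 9.68, 10.06, 9.74, 9.29 and 9.30 in control villi, 9.31, 9.51, 8.68, 8.80 and 9.08 in Rb KO villi and 9.36, 9.87, 9.86, 9.60 and 9.99 in Rb/Myc DKO villi. Its difference of -0.54 ± 0.18 passed the test with overlapping groups (limma adjusted p = 0.0302). Cd247, which encodes the zeta chain of the same complex, read 6.80, 7.04, 6.99, 6.54 and 6.81 in control villi, 6.34, 6.41, 6.49, 6.31 and 6.29 in Rb KO villi and 6.63, 6.70, 6.70, 6.76 and 7.15 in Rb/Myc DKO villi, and here the control and Rb KO arrays did not overlap.

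Cd3g and Cd3d lie head to head on chromosome 9, with 1355 bases between their annotated starts, and both moved the same way in villi. Their promoters are shown because they face each other across 1 short stretch. Each runs from 250 bases before to 50 after the gene's start, 5' to 3' on the gene's own strand, from RefSeq on build GRCm38.p6, with the E protein motif CAGGTG, read on either strand, in capitals.
Cd3d, chr9:44981536-44981835, plus strand: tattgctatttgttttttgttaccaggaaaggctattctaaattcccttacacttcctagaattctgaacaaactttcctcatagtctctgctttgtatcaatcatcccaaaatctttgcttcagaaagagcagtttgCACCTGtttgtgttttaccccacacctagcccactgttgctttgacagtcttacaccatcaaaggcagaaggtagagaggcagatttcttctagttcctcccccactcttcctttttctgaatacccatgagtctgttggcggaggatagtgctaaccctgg
Cd3g, chr9:44980382-44980681, minus strand: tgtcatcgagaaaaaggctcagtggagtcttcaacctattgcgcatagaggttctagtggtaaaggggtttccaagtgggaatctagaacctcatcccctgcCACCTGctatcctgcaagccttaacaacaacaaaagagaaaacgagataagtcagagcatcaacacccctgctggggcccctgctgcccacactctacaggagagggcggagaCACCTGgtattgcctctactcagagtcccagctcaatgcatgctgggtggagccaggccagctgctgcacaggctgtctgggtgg
The E protein motif stands once in the Cd3d window and at 2 places in the Cd3g window. Of the 38 members, 26 had a promoter in the RefSeq table, and 13 of these held the motif, against 22.6% of the 27025 genes in the table. The ETS motif GGAAGT, read on either strand, stood in 13 of 26 members and in 26.5% of all genes. The T-box motif GGTGTG, whose first letters can be the last letters of CAGGTG, stood in 9 of 26 members and in 21.4% of all genes. For E2F, the factor that the Rb protein binds, the motif GCGGGAA stood in 0 of 26 members and in 5.29% of all genes, and the Myc motif CACGTG in 3 of 26 (Cd244a, Lat and Zap70) and in 8.09% of all genes. These are letter matches in short windows and say nothing of binding.

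CD8 is the coreceptor of most intraepithelial T cells. Cd8a, its alpha chain, read 9.91, 10.61, 9.84, 9.76 and 10.16 in control villi, 9.21, 10.17, 9.46, 8.74 and 9.38 in Rb KO villi and 9.92, 10.12, 10, 9.96 and 10.30 in Rb/Myc DKO villi. It fell in Rb KO villi by 0.67 ± 0.21 (limma adjusted p = 0.0242), and Rb KO 2 lay within the control range. Cd8b1, the beta chain found on conventional CD8 T cells, read 6.67, 6.25, 5.93, 7.08 and 6.69 in control villi, 6.03, 5.99, 5.80, 5.75 and 5.74 in Rb KO villi and 6.17, 6.10, 6.46, 6.51 and 6.89 in Rb/Myc DKO villi. Its difference of -0.66 ± 0.18 was close to that of Cd8a, and control 3 lay among the Rb KO arrays. Cd4, the coreceptor of helper T cells, read 7.20, 7.05, 7.16, 7.09 and 7.10 in control villi, 6.99, 7.24, 7.02, 7.12 and 7.0 in Rb KO villi and 7.10, 7.01, 7.17, 7.09 and 7.07 in Rb/Myc DKO villi. Its difference between Rb KO and control was -0.05, with a 95% interval of -0.17 to 0.08, and the arrays of the 3 genotypes overlapped.

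Lat and Zap70 act just inside the membrane once the receptor is engaged. Lat, the adaptor on which signalling proteins assemble, read 8.50, 8.20, 8.06, 8.28 and 8.50 in control villi, 7.89, 7.80, 7.95, 7.52 and 7.50 in Rb KO villi and 8.0, 7.95, 8.29, 8.47 and 8.83 in Rb/Myc DKO villi. The fall in Rb KO villi was 0.58 ± 0.15 (limma adjusted p = 0.00907) with no overlap between the groups. Zap70, the kinase that binds the phosphorylated CD3 and zeta chains, read 9.32, 9.43, 9.31, 9.17 and 9.37 in control villi, 9.03, 9.23, 9.09, 9.08 and 9.19 in Rb KO villi and 9.21, 9.16, 9.19, 9.12 and 8.94 in Rb/Myc DKO villi. Its difference was the smallest among the receptor genes that passed, -0.19 ± 0.07. Another probe set of Zap70 fell by 0.59 ± 0.12 (adjusted p = 0.00148 over all probe sets tested) and rose again in Rb/Myc DKO villi by 0.45 ± 0.12 (adjusted p = 0.0335). The call of Zap70 was kept in 5 of the 15 fits that leave out 1 villus array (adjusted p up to 0.108). It was also lost with quantile normalization, with only the 2 groups compared or with the replicate number as a block. The call of Cd3d was lost without any 1 of control 1, 2 or 3 or Rb KO 3, 4 or 5 (adjusted p up to 0.0867). That of Cd8a was lost without any 1 of control 2 or 5 or Rb KO 1 or 4 (up to 0.0697), and with only the 2 groups compared.

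Among the homing genes, Itgae, which encodes CD103, read 10.29, 10.78, 10.54, 10.25 and 10.42 in control villi, 9.82, 10.01, 9.72, 9.21 and 9.53 in Rb KO villi and 10.42, 10.36, 10.41, 10.21 and 10.79 in Rb/Myc DKO villi. The fall in Rb KO villi was 0.80 ± 0.14, a 1.74-fold lower signal (limma adjusted p = 5.8e-04), and no Rb KO array reached the lowest control. Itgb7, the beta 7 chain that pairs with CD103, read 8.35, 8.31, 8.25, 8.11 and 8.19 in control villi, 7.54, 7.83, 7.92, 7.58 and 7.85 in Rb KO villi and 8.03, 8.12, 8.23, 8.06 and 8.20 in Rb/Myc DKO villi. Its groups also stood apart, with a difference of -0.50 ± 0.08 (limma adjusted p = 2.3e-04). Ccr9, the receptor for the small intestinal chemokine CCL25, read 8.89, 8.33, 8.11, 8.15 and 8.07 in control villi, 7.99, 7.69, 8.09, 7.42 and 7.73 in Rb KO villi and 7.90, 7.93, 7.95, 8.17 and 8.73 in Rb/Myc DKO villi. It fell by 0.53 ± 0.18, with Rb KO 3 just above the lowest control. Itgal, the alpha chain of the adhesion integrin LFA-1, read 6.62, 6.60, 6.69, 6.52 and 6.93 in control villi, 6.46, 6.48, 6.51, 6.38 and 6.53 in Rb KO villi and 6.66, 6.49, 6.60, 6.57 and 6.58 in Rb/Myc DKO villi, a difference of -0.20 ± 0.07 between Rb KO and control. Cxcr3, the receptor of interferon-induced chemokines, read 7.60, 7.48, 7.42, 7.42 and 7.39 in control villi, 7.20, 7.31, 7.10, 7.41 and 7.29 in Rb KO villi and 7.34, 7.39, 7.48, 7.56 and 7.72 in Rb/Myc DKO villi and did not pass the test (limma adjusted p = 0.0664). The call of Itgal was kept in 3 of the 15 fits that leave out 1 array (adjusted p up to 0.114). It was also lost with no filter on low genes and with only the 2 groups compared. The call of Ccr9 was lost without any 1 of control 1 or 2 or Rb KO 2, 4 or 5 (up to 0.105). With the mean of its probe sets the difference of Ccr9 was -0.29 (adjusted p = 0.0595), and its call was also lost with the replicate block. That mean includes probe sets at 5.075 and 4.332 in control villi and 5.141 and 4.343 in Rb KO villi. The other Ccr9 probe sets had means of 8.309, 7.759 and 6.733 in control villi and 7.784, 7.183 and 6.303 in Rb KO villi.

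In the cytotoxic group Cd244a, Ccl5, Fasl, Cd160 and Nkg7 fell, and the other 6 members did not pass the test. Cd244a, a receptor of the SLAM family on killer lymphocytes, read 8.37, 8.83, 8.62, 8.30 and 8.49 in control villi, 7.79, 7.99, 7.95, 7.61 and 7.81 in Rb KO villi and 8.53, 8.41, 8.44, 8.41 and 8.69 in Rb/Myc DKO villi. The fall in Rb KO villi was 0.69 ± 0.10 (limma adjusted p = 9.2e-05), with no overlap. Ccl5, a chemokine that effector T cells store and release, read 13.01, 13.68, 13.15, 12.76 and 13.40 in control villi, 12.71, 12.87, 12.62, 12.22 and 12.17 in Rb KO villi and 13.26, 13.06, 13.15, 13.00 and 13.17 in Rb/Myc DKO villi. The difference between Rb KO and control was -0.68 ± 0.16, and Rb KO 2 lay above control 4. Fasl, the death ligand, read 7.19, 7.27, 7.05, 7.0 and 7.34 in control villi, 6.81, 7.16, 6.67, 6.29 and 6.38 in Rb KO villi and 7.05, 7.07, 7.18, 7.20 and 7.44 in Rb/Myc DKO villi and fell by 0.51 ± 0.14. Cd160, a receptor of intestinal CD8 cells for the epithelial protein HVEM, read 8.32, 8.43, 8.09, 7.83 and 8.13 in control villi, 7.69, 7.86, 7.88, 7.80 and 7.68 in Rb KO villi and 8.15, 8.08, 8.21, 8.12 and 8.41 in Rb/Myc DKO villi and fell by 0.38 ± 0.10.

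Nkg7, a membrane protein of cytotoxic granules, had the widest difference of the 31 members. It read 8.26, 9.89, 10.03, 9.54 and 10.10 in control villi, 8.24, 8.37, 7.89, 8.57 and 8.77 in Rb KO villi and 9.59, 9.46, 9.59, 9.98 and 9.84 in Rb/Myc DKO villi. Its difference was -1.20 ± 0.28 (limma adjusted p = 0.00383), a 2.29-fold lower signal, and -1.52 without control 1, which lay within the Rb KO range. Hddc3, another chromosome 7 gene chosen here after its values were seen, grouped in the same way in villi. It read 6.09 in control 1 and 8.74 to 9.53 in the other control villi. It read 5.95 to 6.22 in Rb KO villi and 9.0 to 9.91 in Rb/Myc DKO villi. In control crypts Hddc3 read 6.93 in control 1 and 9.46 to 9.96 in the others, while Nkg7 read 6.43 and 6.54 to 6.76. Within groups, the deviations of Nkg7 had a correlation of -0.13 with the mean of the other 30 members over the 15 villus arrays. What sets these arrays apart was not tested for its part in the Nkg7 difference.

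Neither granzyme gene passed the test. Gzma, the granzyme A gene, read 13.60, 13.89, 13.70, 13.20 and 13.43 in control villi, 13.56, 13.71, 13.46, 13.03 and 13.06 in Rb KO villi and 13.82, 13.69, 13.65, 13.46 and 13.83 in Rb/Myc DKO villi. The difference between Rb KO and control was -0.20, with a 95% interval of -0.50 to 0.11. Gzmb, the granzyme B gene, read 12.44, 12.61, 12.32, 11.87 and 12.44 in control villi, 12.48, 12.86, 12.41, 11.64 and 11.79 in Rb KO villi and 12.41, 12.61, 12.52, 12.27 and 12.69 in Rb/Myc DKO villi. Its difference was -0.10, with an interval of -0.52 to 0.32, and Rb KO 2 was the highest of the 15 arrays. Both intervals include 0 and also the members' median of -0.43. Prf1 (perforin), Klrd1 (CD94), Klrk1 (NKG2D) and Xcl1 (lymphotactin) differed by -0.10, -0.21, -0.09 and -0.10, and none of these passed the test. Without control 4, which lay far below the other controls, Klrd1 differed by -0.44 and passed (limma adjusted p = 0.0186). A second probe set of Prf1 fell by 0.30 ± 0.09 (adjusted p = 0.016 over all probe sets tested).

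The promoters of Nkg7 and Gzmb are shown because both hold the RUNX motif, while Nkg7 fell in Rb KO villi and Gzmb did not pass the test. The windows are built as above, and the motif TGTGGT, read on either strand, is in capitals.
Nkg7, chr7:43436888-43437187, plus strand: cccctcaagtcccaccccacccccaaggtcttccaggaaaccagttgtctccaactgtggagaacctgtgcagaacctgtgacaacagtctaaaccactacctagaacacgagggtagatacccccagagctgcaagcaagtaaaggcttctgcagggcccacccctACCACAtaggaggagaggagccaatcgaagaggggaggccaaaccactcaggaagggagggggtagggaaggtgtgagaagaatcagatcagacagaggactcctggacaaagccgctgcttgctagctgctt
Gzmb, chr14:56262285-56262584, minus strand: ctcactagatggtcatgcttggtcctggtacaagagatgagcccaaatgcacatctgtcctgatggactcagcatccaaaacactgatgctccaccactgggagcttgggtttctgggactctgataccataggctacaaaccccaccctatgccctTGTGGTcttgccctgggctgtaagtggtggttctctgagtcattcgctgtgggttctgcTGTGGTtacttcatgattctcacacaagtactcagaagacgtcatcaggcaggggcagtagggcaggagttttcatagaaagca
The motif stands once in the Nkg7 window and at 2 places in the Gzmb window. It stood in 12 of 26 members (46.2%) and in 18.9% of all genes in the table.

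Of the costimulation and surface genes, Ptprc, which encodes CD45 on all white blood cells, read 10.57, 10.42, 10.22, 10.01 and 10.35 in control villi, 9.64, 10.02, 9.79, 9.30 and 9.70 in Rb KO villi and 10.16, 10.14, 10.31, 10.26 and 10.60 in Rb/Myc DKO villi. The fall in Rb KO villi was 0.62 ± 0.13 (limma adjusted p = 0.00173), with Rb KO 2 just above control 4. Il2rb, the receptor chain through which interleukin 15 signals, read 8.57, 9.29, 8.64, 8.11 and 8.42 in control villi, 7.54, 8.38, 8.01, 7.27 and 7.73 in Rb KO villi and 8.23, 8.55, 8.35, 8.26 and 8.71 in Rb/Myc DKO villi. It fell by 0.82 ± 0.21, a 1.77-fold lower signal. Cd7, a surface protein of T and killer cells, read 11.32, 11.80, 11.37, 10.82 and 11.37 in control villi, 11.14, 11.16, 11.09, 10.57 and 10.60 in Rb KO villi and 11.52, 11.36, 11.40, 11.18 and 11.44 in Rb/Myc DKO villi, a difference of -0.43 ± 0.16 that did not pass the test (limma adjusted p = 0.0522). With all 30 arrays in 1 fit Cd7 passed (limma adjusted p = 0.0209), but not with quantile normalization. Cd2, an adhesion receptor, read 5.70, 5.51, 5.36, 5.39 and 5.51 in control villi and 5.51, 5.62, 5.41, 5.35 and 5.51 in Rb KO villi, with a difference of -0.01.

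Among transcription factors of effector T cells, Runx3, which sets the CD8 lineage, read 6.86, 6.70, 6.67, 6.52 and 6.74 in control villi and 6.61, 6.72, 6.70, 6.55 and 6.57 in Rb KO villi, with a difference of -0.07. A second probe set of Runx3 fell by 0.49 ± 0.14 (adjusted p = 0.0147 over all probe sets tested) and rose in Rb/Myc DKO villi by 0.52 ± 0.14 (adjusted p = 0.0368). Eomes, a T-box factor of memory and killer cells, read 4.75, 5.01, 5.13, 4.86 and 4.94 in control villi and 4.63, 4.88, 4.80, 4.88 and 5.06 in Rb KO villi. Tbx21, which encodes the T-box factor T-bet and is shown after its values were seen, lay below the filter over all 30 arrays. It read 6.19, 6.60, 6.35, 5.92 and 6.71 in control villi, 5.58, 5.47, 5.77, 5.34 and 5.31 in Rb KO villi and 5.89, 6.04, 6.42, 6.13 and 6.07 in Rb/Myc DKO villi. In the limma fit without a filter its difference was -0.86 ± 0.14 (adjusted p = 2.9e-04), and Cd27, a costimulatory receptor, differed by -0.36 ± 0.12 (adjusted p = 0.0377). Just below the filter were Trat1 and Cd5, with differences of -0.09 and -0.54, neither of which passed in that fit.

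**Figure D2:**
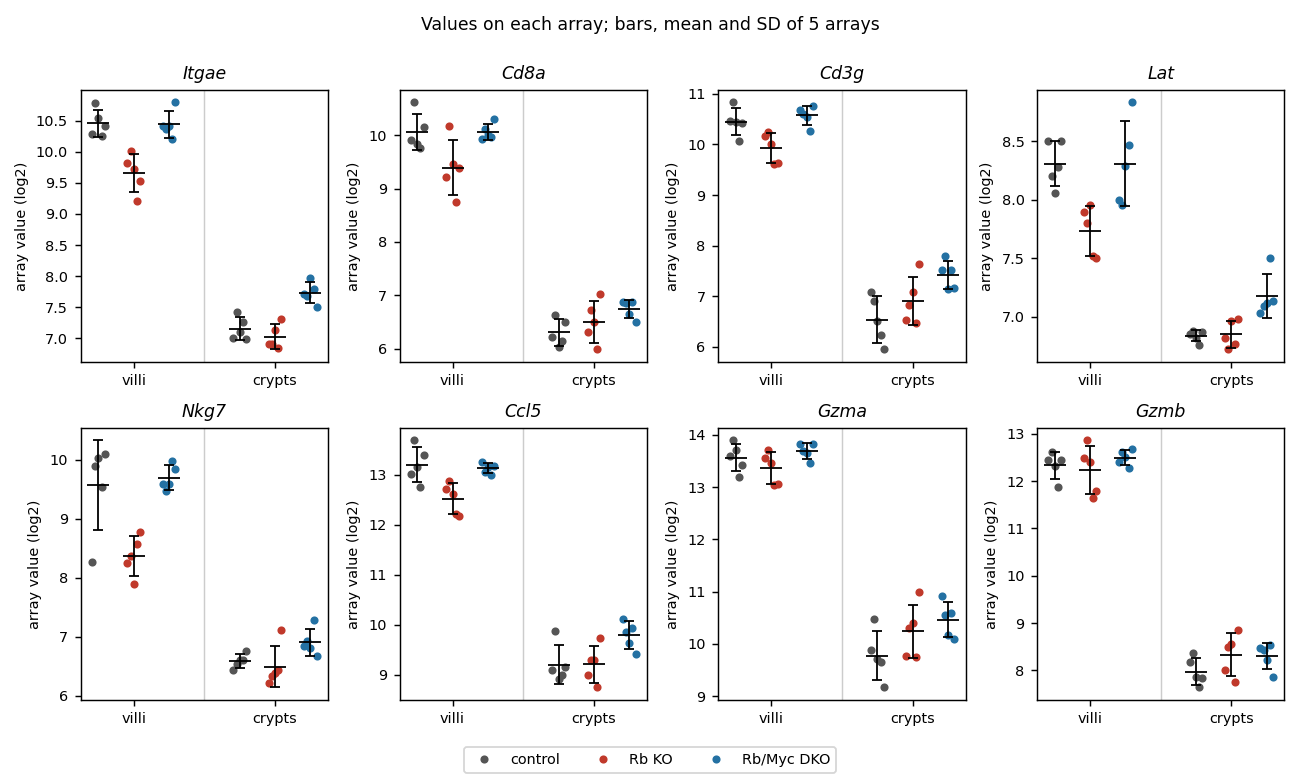
Log2 value on each array for 8 members, in villi and in crypts, with the mean and SD of 5 arrays per genotype; the level in villi is not comparable with that in crypts. Itgae and Lat in Rb KO villi lie below all controls, while the Gzma and Gzmb points of the genotypes overlap.

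Lymphocyte genes were higher in Rb/Myc DKO villi than in Rb KO villi. Between Rb/Myc DKO and Rb KO villi, 12 of 31 members rose and 0 fell, with a median difference of 0.38 against -0.01 over all genes tested, of which 5.90% rose and 1.92% fell. These were 4 of 9 receptor genes, 2 of 5 homing genes, 5 of 11 cytotoxic genes and 1 of 4 costimulation genes. For 13 members all 5 Rb/Myc DKO arrays lay above all 5 Rb KO arrays, which held for 6.14% of all genes tested, while 2.96% lay wholly below. B cell and follicle genes moved with the members here: 6 of 17 rose and 0 fell, with a median difference of 0.21, and their mean level was 6.66 to 7.0 in Rb/Myc DKO villi and 6.30 to 6.58 in Rb KO villi, with no overlap. Their part in the members' rise was not tested. This comparison uses the same 5 Rb KO arrays as the one with control, so the 2 counts are not independent.

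Itgae rose by 0.78 ± 0.14 (limma adjusted p = 0.0057) and Itgb7 by 0.38 ± 0.08, and in both no arrays overlapped. Ccr9, Cxcr3 and Itgal differed by 0.35, 0.24 and 0.11 and did not pass. Another probe set of Itgal had means of 6.588 in control, 6.268 in Rb KO and 6.743 in Rb/Myc DKO villi. Cd3g rose by 0.65 ± 0.15 (limma adjusted p = 0.0164), Cd3d by 0.66, Lat by 0.58 and Cd247 by 0.42. Both CD8 chains had differences of that size, 0.67 ± 0.21 for Cd8a and 0.57 ± 0.18 for Cd8b1, but did not pass (adjusted p = 0.0632 and 0.0714). With all 30 arrays in 1 fit both passed (limma adjusted p = 0.0224 and 0.0135), but not with quantile normalization or median centring. Leaving out 1 array ended the call of Cd3d in 7 of 15 fits (adjusted p up to 0.0822), that of Lat in 6 (up to 0.0775) and that of Cd247 in 2 (without Rb KO 4 or 5, up to 0.0525).

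Cd244a rose by 0.67 ± 0.10 (limma adjusted p = 0.00167), Ccl5 by 0.61, Fasl by 0.53 and Cd160 by 0.41. Nkg7 rose by 1.32 ± 0.28, with the grouping of arrays described above. Gzma and Gzmb differed by 0.32 and 0.26, and neither passed the test. Ptprc rose by 0.60 ± 0.13, and Il2rb differed by 0.63 ± 0.21 (adjusted p = 0.076). With all 30 arrays in 1 fit Il2rb passed (limma adjusted p = 0.0123), but not with quantile normalization or median centring. The call of Ptprc was lost with the mean of its probe sets (difference 0.23, adjusted p = 0.177). Leaving out 1 array ended the call of Ccl5 in 6 of 15 fits, that of Fasl in 5 and that of Cd160 without Rb/Myc DKO 3, and 7 members rose without any 1 of Rb KO 4, Rb KO 5 or Rb/Myc DKO 3. Without both Rb KO 4 and 5, 9 members fell in Rb KO villi and 4 rose in Rb/Myc DKO villi. Without control 1 the counts were 15 and 12. These fits hold fewer arrays, and the share of all genes called in them is not given here.

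Rb/Myc DKO villi and control villi, a comparison that uses no Rb KO array in its difference, showed 0 of 31 members changed by limma, with 2 at an unadjusted p under 0.05. Among all genes tested, 11.3% rose and 5.78% fell, and 5.49% had all Rb/Myc DKO arrays below all controls, against 0 members. The median difference was -0.02 and the differences ran from -0.19 to 0.16. That of Itgae was -0.02 with a 95% interval of -0.32 to 0.29, that of Cd8a 0.00 with -0.44 to 0.45, and that of Cd3g 0.13 with -0.19 to 0.44. The lowest adjusted p-values were those of Prf1 (0.0522) and Zap70 (0.0656), and these 2 were called lower with all 30 arrays in 1 fit (adjusted p = 0.031 and 0.0233). Without control 4, 3 members were called lower. The 95% intervals of single members reached from -0.63 to 0.71, so changes of that size are not excluded.

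In crypts 2 of 31 members differed between Rb KO and control. Klrd1, which encodes CD94, rose and Cd244a fell, while 7.33% of all genes rose and 2.97% fell. Klrd1 read 5.59, 5.57, 5.06, 4.90 and 5.51 in control crypts, 5.60, 6.16, 5.85, 5.99 and 6.81 in Rb KO crypts and 5.84, 5.74, 5.99, 5.75 and 5.69 in Rb/Myc DKO crypts, a difference of 0.76 ± 0.18 between Rb KO and control (limma adjusted p = 0.0148). Every Rb KO array was above every control, if narrowly, and 2 of the control values lay below the filter level. Cd244a read 6.97, 7.13, 6.92, 7.01 and 6.72 in control crypts, 6.63, 6.76, 6.81, 6.39 and 6.52 in Rb KO crypts and 6.91, 7.07, 7.12, 7.04 and 7.15 in Rb/Myc DKO crypts. Control 5 lay among the Rb KO arrays. The gene fell in Rb KO crypts by 0.33 ± 0.09 (limma adjusted p = 0.0216), a call lost without any 1 of control 2 or Rb KO 4 or 5 (adjusted p up to 0.0609). Without both Rb KO 4 and 5, 0 members passed. The median difference was 0.01. All 5 Rb KO arrays lay below all controls for 0 members and for 2.68% of all genes.

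Against Rb KO crypts, Rb/Myc DKO crypts had 4 members higher and 0 lower, while 5.17% of all genes rose and 7.22% fell. For 4 members all Rb/Myc DKO arrays lay above all Rb KO arrays and for 0 below, against 4.89% and 6.78% of all genes. Itgae read 7.0, 7.43, 7.10, 7.27 and 6.99 in control crypts, 6.91, 6.91, 7.14, 6.84 and 7.32 in Rb KO crypts and 7.72, 7.68, 7.97, 7.80 and 7.50 in Rb/Myc DKO crypts. It rose by 0.71 ± 0.11 against Rb KO (limma adjusted p = 6.2e-04) and by 0.58 ± 0.11 against control (adjusted p = 0.00135), with the Rb/Myc DKO arrays above all others. Cd244a rose against Rb KO by 0.44, Cd3d by 0.36 and Lat by 0.32. With all 30 arrays in 1 fit the calls of Cd3d and Lat were lost (adjusted p = 0.163 and 0.123), and that of Cd3d was also lost with quantile normalization, median centring or the replicate block. Lat read 6.85, 6.88, 6.82, 6.76 and 6.87 in control crypts, 6.82, 6.72, 6.96, 6.77 and 6.98 in Rb KO crypts and 7.03, 7.09, 7.12, 7.50 and 7.13 in Rb/Myc DKO crypts, again with every Rb/Myc DKO array highest. Cd3d read 7.18, 6.92, 6.86, 6.80 and 7.13 in control crypts, 6.81, 7.05, 7.04, 6.82 and 7.24 in Rb KO crypts and 7.26, 7.53, 7.60, 7.28 and 7.08 in Rb/Myc DKO crypts, with overlap, and its call was lost without any 1 of 8 arrays (Rb KO 1 to 4 and Rb/Myc DKO 1 to 4, adjusted p up to 0.105). Without Rb KO 5, 8 members rose, and without Rb/Myc DKO 5, 7 did.

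Against control crypts, 7 members rose in Rb/Myc DKO crypts and 0 fell, beside 11.0% of all genes that rose and 20.2% that changed in either direction. They were Cd3g, Ccl5, Itgae, Cd7, Cd3d, Lat and Klrk1. With all 30 arrays in 1 fit the calls of Cd3d, Lat and Klrk1 were lost (adjusted p = 0.108 for Cd3d and 0.0733 for Lat), and that of Cd3d was lost without any 1 of control 3, control 4, Rb/Myc DKO 2 or Rb/Myc DKO 3 (up to 0.0651). Cd3g read 7.09, 6.91, 6.51, 6.23 and 5.95 in control crypts, 6.54, 6.82, 7.09, 6.47 and 7.64 in Rb KO crypts and 7.51, 7.80, 7.14, 7.52 and 7.17 in Rb/Myc DKO crypts, a difference of 0.89 ± 0.23 (limma adjusted p = 0.0123). Cd7 read 8.47, 8.52, 8.27, 8.06 and 8.27 in control crypts, 8.37, 8.52, 8.63, 8.20 and 8.90 in Rb KO crypts and 8.84, 8.84, 8.67, 8.86 and 8.60 in Rb/Myc DKO crypts, with the last group above all controls. Ccl5 read 9.09, 9.87, 8.91, 8.99 and 9.16 in control crypts, 8.99, 9.30, 9.30, 8.75 and 9.73 in Rb KO crypts and 10.12, 9.85, 9.63, 9.94 and 9.41 in Rb/Myc DKO crypts, and control 2 lay among the Rb/Myc DKO arrays. Its difference of 0.59 ± 0.19 kept its call in 5 of the 15 fits that leave out 1 array. Klrk1, the NKG2D gene, read 5.72, 5.67, 5.71, 5.76 and 5.81 in control crypts, 5.73, 5.76, 5.83, 5.80 and 5.77 in Rb KO crypts and 5.64, 6.04, 5.97, 6.11 and 5.97 in Rb/Myc DKO crypts, a difference of 0.22 whose call was kept in 7 of those 15. Without Rb KO 5 the count was 11, and it was 4 without any 1 of control 3, control 4 or Rb/Myc DKO 2.

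**Figure D3:**
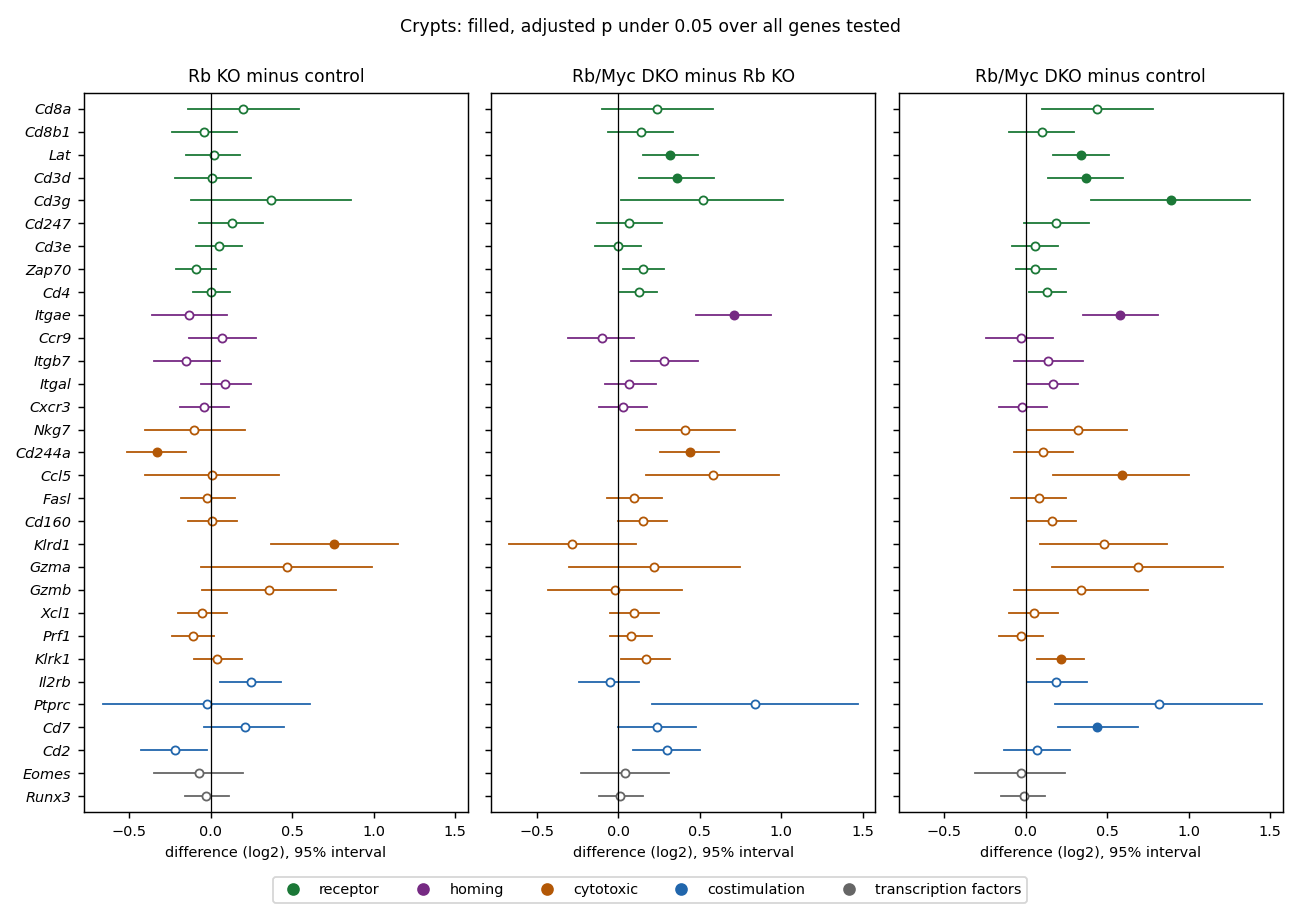
Difference in log2 value in crypts for the 31 members, with its 95% interval, drawn as for villi. Rb KO minus control has 2 filled points (Klrd1 higher, Cd244a lower), and both comparisons of Rb/Myc DKO have filled points only to the right of 0, 4 and 7 in number.

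The effect of Rb deletion on these genes was set against itself in the 2 tissues by subtracting the crypt difference from the villus difference. For 12 of 31 members the villus difference was lower than the crypt difference, and for 0 it was higher, while 6.98% of all genes tested were lower in this way. Il2rb gave -1.07 ± 0.24 (limma adjusted p = 0.00302), Cd247 -0.59 ± 0.14 and Cd3e -0.47 ± 0.11. Cd3g, Cd8a, Lat, Itgae, Nkg7, Klrd1, Fasl, Cd160 and Cd7 made up the rest, from -1.10 for Nkg7 to -0.39 for Cd160. Klrd1 and Cd247 had means of 5.32 and 5.54 in control crypts, near the filter level, where a fall is hard to see. Fasl, Il2rb, Cd8a, Cd3g and Nkg7 also read low there, with means of 5.85, 6.08, 6.31, 6.54 and 6.59, below the crypt array medians. Lat, Itgae, Cd160, Cd3e and Cd7 read higher, from 6.83 to 8.32. The part of low crypt signal in these differences was not tested. For Itgae the interaction was -0.67 ± 0.19 (adjusted p = 0.017). With villus and crypt arrays of the same genotype and number taken as 1 animal and used as a replicate block, 18 members were lower, among them all 12. Without Rb KO 4 and 5, 1 member passed, Il2rb, and without Rb KO crypt 5 the count was 5. It was 6 or 7 without any 1 of control villus 2 or 5, Rb KO villus 4 or control crypt 3 or 4, while the calls of Il2rb, Cd247, Cd3e and Itgae were kept in all 30 fits that leave out 1 array.

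The same subtraction for Myc deletion on top of Rb deletion called 0 of 31 members by limma, with 8 at an unadjusted p under 0.05, beside 2.29% of all genes higher and 1.11% lower, or 3.40% in all. With the animal as a replicate block, 3 members were higher: Nkg7 (0.91 ± 0.24, adjusted p = 0.0278), Il2rb (0.69 ± 0.19, adjusted p = 0.0326) and Fasl (0.43 ± 0.12, adjusted p = 0.0393). The rise of Itgae in Rb/Myc DKO over Rb KO was 0.78 in villi and 0.71 in crypts, and the difference between them was 0.07 ± 0.19.

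Other T cell genes, listed apart from the members, were measured as a companion group. Of 39 tested, 22 fell and 1 rose in Rb KO villi, beside 15.8% of all genes that fell and 14.7% that rose. Between Rb KO and Rb/Myc DKO villi 20 rose and 0 fell, beside 5.90% of all genes that rose. Fyn, a kinase of T cell receptor signalling, fell by 0.75 ± 0.12, Cd96, a receptor of killer cells, by 0.65, Was, an actin regulator of blood cells, by 0.50 and Selplg, a selectin ligand, by 0.55. The gene that rose was Bcl11b, a T cell transcription factor; it rose by 0.56 ± 0.15 (limma adjusted p = 0.0102). In Rb/Myc DKO crypts 8 of 39 rose against Rb KO, beside 5.17% of all genes, and 11 rose and 1 fell against control, beside 11.0% of all genes that rose.

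Epithelial genes that act on these cells were listed too. Of 27 tested, 8 fell and 3 rose in Rb KO villi, where 15.8% of all genes fell and 14.7% rose. Btnl2, a butyrophilin-like gene of the villus epithelium, fell from 10.91 ± 0.31 (SD, n = 5) to 10.13 ± 0.17, by 0.78 ± 0.15 (limma adjusted p = 0.00116), and rose in Rb/Myc DKO villi by 0.55 ± 0.15. Cd1d1, which presents lipids to T cells, fell by 0.31 and rose by 0.43, Cd274, which encodes the inhibitory ligand PD-L1, fell by 0.38, and Ulbp1, an NKG2D ligand, rose by 0.39. Cdh1, the E-cadherin that CD103 binds, differed by 0.08 in Rb KO villi with a 95% interval of -0.12 to 0.27. Ccl25, the CCR9 ligand, differed by -0.04 with -0.22 to 0.15, and Il15, which feeds these lymphocytes, by -0.33 with -0.73 to 0.07. None of these 3, chosen for their ties to the members, passed the test.

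Genes of other cells that share the tissue were followed beside the members. In Rb KO villi 0 of 22 myeloid genes changed, and 2 of 17 B cell and follicle genes fell (Ltb, which T cells also express, and Cd37). Of 10 plasma cell genes, 3 fell and 1 rose, and 1 of 15 mesenchyme and vessel genes rose. Among all genes 15.8% fell and 14.7% rose in the same comparison. The mean B cell level was 6.51 to 6.91 in control villi and 6.30 to 6.58 in Rb KO villi. In Rb/Myc DKO crypts, where members rose, 5 of 17 B cell genes rose against Rb KO crypts, beside 5.17% of all genes, and the mean B cell level was 6.80 to 7.57 against 6.50 to 6.83. Ms4a1, which encodes CD20, read 6.39 to 8.40 in Rb/Myc DKO crypts and 5.78 to 6.69 in Rb KO crypts, and did not pass the test (limma adjusted p = 0.0703). Of 14 exocrine pancreas genes, 2 fell in Rb KO villi and 3 rose between Rb KO and Rb/Myc DKO villi, beside 5.90% of all genes. Their median difference between Rb/Myc DKO and Rb KO was 0.69 in villi and 1.07 in crypts, with 13 of 14 above 0 in each. Their mean level in Rb/Myc DKO crypts ran from 7.87 to 11.25. The part of these other cells in the members' differences was not tested.

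**Figure D4:**
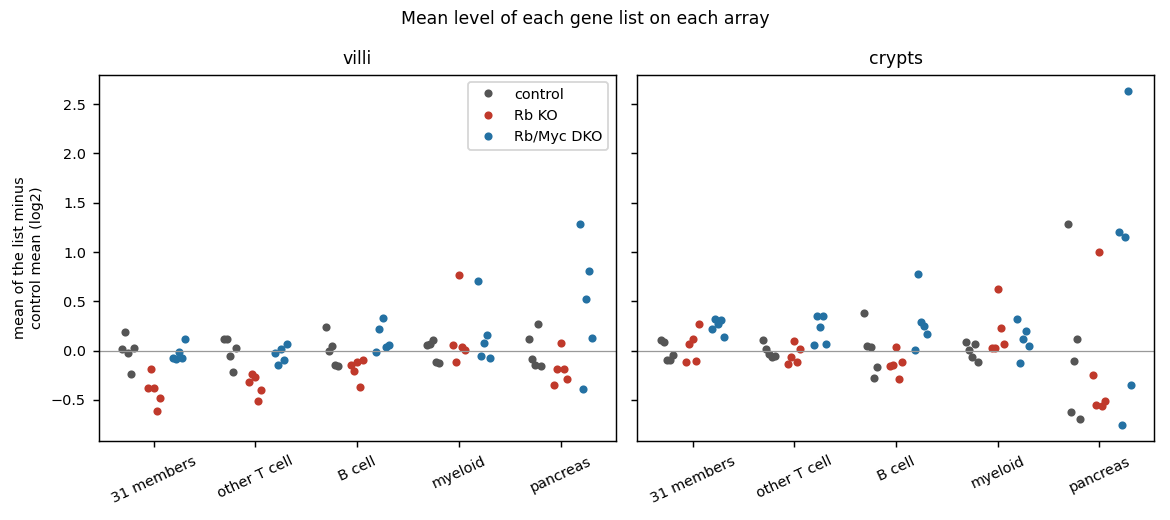
Mean log2 level of each gene list on each array, minus the mean of the control arrays of the same tissue, for the 31 members, 39 other T cell genes, 17 B cell, 22 myeloid and 14 pancreas genes. In villi the Rb KO arrays lie low for both T cell lists, with 1 array of the members' list above the lowest control, and in crypts the pancreas genes spread furthest, with a highest Rb/Myc DKO mean of 11.25 before subtraction.

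Over the 31 members, the mean level was 8.61, 8.78, 8.57, 8.35 and 8.62 in control villi, 8.21, 8.40, 8.21, 7.98 and 8.11 in Rb KO villi and 8.52, 8.51, 8.58, 8.52 and 8.71 in Rb/Myc DKO villi. Only Rb KO 2 and control 4 overlapped between control and Rb KO. In crypts it was 7.04, 7.02, 6.84, 6.84 and 6.89 in control, 6.82, 7.0, 7.05, 6.83 and 7.20 in Rb KO and 7.15, 7.25, 7.20, 7.24 and 7.07 in Rb/Myc DKO. There the Rb/Myc DKO arrays were above all controls, and Rb KO 5 was the highest of its group.

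Members also varied together between arrays of 1 genotype. After subtracting group means, the 465 pairs of members had a median correlation of 0.36 over the 15 villus arrays, with 35.5% of pairs above 0.5, and of 0.22 over the 15 crypt arrays, with 18.5% above 0.5. In villi Itgae (0.87), Gzmb (0.87), Il2rb (0.86), Cd3g (0.85) and Ptprc (0.85) followed the mean of the other members most closely, while Cd8b1 (-0.10), Nkg7 (-0.13) and Eomes (-0.19) did not. The arrays share their RNA preparation across genes, so these are descriptions. Pairs of genes outside the members were not correlated in the same way, so the values are not shown to be particular to the members. Outside the lists, the genes most like the mean of the members in the same deviations were Tbc1d10c, Prkch, Arhgap4, Dock10, Tpte, Gimap8, Fyb, Cnn2, Gprasp1 and Arhgap30, with correlations of 0.89 to 0.94 over 15 arrays. Of these, Dock10 differed by -0.77 ± 0.14 between Rb KO and control villi (limma adjusted p = 5.3e-04) and Gimap8 by -0.64 ± 0.10, while Arhgap4 differed by -0.06 ± 0.15.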

How the data were processed

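The data were 30 Affymetrix arrays, 5 for each of 3 genotypes in villi and in crypts, with biotin-labelled total RNA per the labels. The deposited values were on a log2 scale (2.64 to 15.21), as judged from the values; the normalization and summary method are not given in the sources used here. Of 45101 probe sets, 34958 named 1 gene, and 932 that named several were left out. The members and lists were chosen with earlier results of these data known. limma 3.58.1 in R 4.3.3 (lmFit, eBayes) was fitted to the 15 arrays of each tissue, and for the interactions to all 30, with Benjamini-Hochberg adjustment over 14548 genes; the steps were tested on simulated data. Values per array are named for members past the threshold in any comparison and for up to 2 others per role; for other lists, up to 4 genes of smallest p in villi; outside them, the 10 genes most correlated with the members. Names added after values were seen are said to be so, and include Bcl11b, Ms4a1, Cdh1, Ccl25 and Il15. Villus and crypt arrays of 1 genotype and number deviated together (r of 0.25 to 0.56 in 15 pairs). For 14 of the 15, the crypt array of the same number was the best match within the genotype, Rb KO 5 being the exception. Each pair was taken as 1 animal, which the labels do not state. Arrays of the same number and different genotype had r of -0.27 to 0.42, a range that overlaps the first, and were left unpaired in the main fits. The number of arrays limits the precision.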

Additional observations from a re-analysis of the deposited data

Results flagged for a closer look

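On single arrays, 12 of 228 groups of 5 held a value far from the other 4, about the share of 1 in 20 that chance gives. In villi these were Cd247 at 7.15 in Rb/Myc DKO 5 (others 6.63 to 6.76), Prf1 at 6.66 in control 2 (6.44 to 6.49), Klrd1 at 8.28 in control 4 (9.20 to 9.55) and Runx3 at 6.88 in Rb/Myc DKO 1 (6.60 to 6.66). In control crypts they were Itgal at 6.48 in replicate 3 (6.68 to 6.77), Itgb7 at 7.56 in replicate 1 (7.15 to 7.25) and Ccl5 at 9.87 in replicate 2 (8.91 to 9.16). In Rb KO crypts they were Nkg7 at 7.11 in replicate 5 (6.21 to 6.43), Il2rb at 6.55 in replicate 3 (6.23 to 6.33) and Runx3 at 7.14 in replicate 3 (7.27 to 7.32). In Rb/Myc DKO crypts they were Lat at 7.50 in replicate 4 (7.03 to 7.13) and Fasl at 6.19 in replicate 5 (5.87 to 5.89).

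The effect of Rb deletion differed between villi and crypts for 12 members, by limma's interaction test with adjustment over all genes, beside 6.98% of all genes that were lower in this way and 13.7% that differed either way. The count was 1 without Rb KO 4 and 5, and 5 to 7 without any 1 of control villus 2 or 5, Rb KO villus 4, control crypt 3 or 4 or Rb KO crypt 5. The villus difference minus the crypt difference was -1.07 for Il2rb, -1.10 for Nkg7, -0.97 for Klrd1, -0.89 for Cd3g, -0.86 for Cd8a and -0.67 for Itgae. It was -0.63 for Cd7, -0.60 for Lat, -0.59 for Cd247, -0.49 for Fasl, -0.47 for Cd3e and -0.39 for Cd160. For Klrd1 the separate differences were -0.21 in villi (limma adjusted p = 0.475) and 0.76 in crypts (adjusted p = 0.0148). Without control villus 4 the villus difference of Klrd1 was -0.44 and passed the test (adjusted p = 0.0186).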

How the results depend on the processing

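The median differences of the members kept their direction, where it was not near 0, and no single result changed sign under any alternative run. The share of all genes called under each alternative is not given here, so the counts below are not set against it. Counts of members called moved by over 1.5 times as follows. At an adjusted p of 0.01 they were 12 for Rb KO against control villi, 2 for Rb/Myc DKO against Rb KO villi, 0 for Rb KO against control crypts, 2 for each comparison of Rb/Myc DKO crypts and 3 for the Rb interaction. Without Rb KO 4 and 5, a choice made after seeing the data that leaves fewer arrays, the counts were 9, 4 and 0 for the comparisons of Rb KO in villi, Rb/Myc DKO with Rb KO in villi and Rb KO in crypts, and 1 for the Rb interaction. Rb/Myc DKO against control villi went from 0 to 1 with genes above the 50th percentile and to 2 with quantile normalization or all 30 arrays in 1 fit, all lower. The Myc interaction went from 0 to 2 with the mean of all probe sets, to 3 with the animal as a replicate block and to 1 without control 1.

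Leaving out 1 array at a time gave 14 to 21 and 7 to 15 members in the villus comparisons with Rb KO, the 7 without Rb KO 4, Rb KO 5 or Rb/Myc DKO 3, and 0 to 3 for Rb/Myc DKO against control villi (3 without control 4, 1 without Rb/Myc DKO 3). In crypts it gave 1 to 2 for Rb KO against control (1 without Rb KO 4 or 5), 3 to 8 for Rb/Myc DKO against Rb KO and 4 to 11 against control. The Rb interaction gave 5 to 18 (5 to 7 without control villus 2 or 5, Rb KO villus 4, control crypt 3 or 4 or Rb KO crypt 5) and the Myc interaction 0 to 2 (1 without control villus 1, 2 without Rb KO villus 2). The medians ran from -0.53 to -0.37, 0.33 to 0.43 and -0.07 to 0.03 in villi and from -0.04 to 0.05, 0.11 to 0.17 and 0.14 to 0.21 in crypts. With the replicate number as a replicate block within a tissue the counts were 18, 16, 0, 2, 4 and 7, and 18 for the Rb interaction with the animal as block. The block within a tissue joins arrays of the same number across genotypes, which the labels do not say belong together. The causes of these changes were not tested. Klrk1, Cd2 and Eomes read near the filter level, where array signal limits what differences can be seen. In control crypts Klrd1, Cd8b1, Xcl1 and Cd247 also did, with means of 5.32, 5.28, 5.20 and 5.54. A fall from such a level is hard to see, and the part of this limit in the Rb interaction was not tested.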

Other observations

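Variable genes of the T cell receptor gamma chain, chosen after their values were seen, were also read in villi. Trgv4 fell in Rb KO villi from 10.36 to 9.91, by 0.45 ± 0.15 (limma adjusted p = 0.0342), and stood at 10.36 in Rb/Myc DKO villi, a difference from Rb KO of 0.44 ± 0.15 (adjusted p = 0.0839). Trgv1 read 9.43, 9.06 and 9.56 in control, Rb KO and Rb/Myc DKO villi, and its rise of 0.49 ± 0.14 between Rb KO and Rb/Myc DKO passed the test (adjusted p = 0.038). Probe sets for such genes can also read near-identical relatives.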
